A study of Mus musculus with 54 samples.

Results

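The first-day course of prieurianin-treated 3T3-L1 cells was read by setting the arrays at 9, 12 and 15 h against the arrays at 0, 0.25, 0.5 and 1 h of the same treatment. These are 7 of the 54 arrays of the series, 3 late and 4 early, chosen from the arm and the time in the sample labels. 3T3-L1 is an established mouse preadipocyte line, fibroblast-like cells able to become fat cells. The series followed it in 3 arms at 18 times up to 288 h, with 1 array per arm and time. The prieurianin arm received 2 µM prieurianin (a plant limonoid), the DMSO arm 0.5% DMSO, the vehicle, and the untreated arm neither, while it underwent normal differentiation. The late and early arrays of the DMSO and untreated arms, 3 and 4 in each, served to show which changes the controls shared at the same times. The labels do not say whether each time was a separate culture, nor at which time, if at all, the stimulus to differentiate was given to the treated arms. Neighbouring times served as the replicates, so the p-values measure the spread between those times. That spread may be technical in part, and it also holds change over time, as for the immediate early genes described below.

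In differentiating 3T3-L1 cells, immediate early genes switch on within minutes of a change of medium or hormones, and the cells then re-enter the cell cycle before fat cell genes rise. Pparg and Cebpa are the transcription factors that drive fat cell genes, while an intact actin cytoskeleton and integrin contacts are features of the undifferentiated fibroblast-like state. Actin assembly is read out by SRF, serum response factor, which binds the CArG box in promoters of contractile genes, and by YAP, a cofactor that responds to cell tension.

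Levels are log2(intensity + 16) after quantile normalisation, and changes are late minus early means on that scale, which understates changes of dim genes. A gene was called at a limma adjusted p (Benjamini-Hochberg) under 0.05 among 12792 genes tested. In the prieurianin course 1762 genes rose (13.8% of those tested) and 2061 fell (16.1%). Of these, 285 rises and 564 falls exceeded 2-fold, and 48 and 86 exceeded 4-fold. The median change over all genes tested was 0.02, and 0.01 in each control arm. Over the same times 1780 genes rose in the DMSO arm (13.9%) and 1951 fell (15.3%). In the untreated arm 2034 rose (15.9%) and 1946 fell (15.2%).

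**Figure D1:**
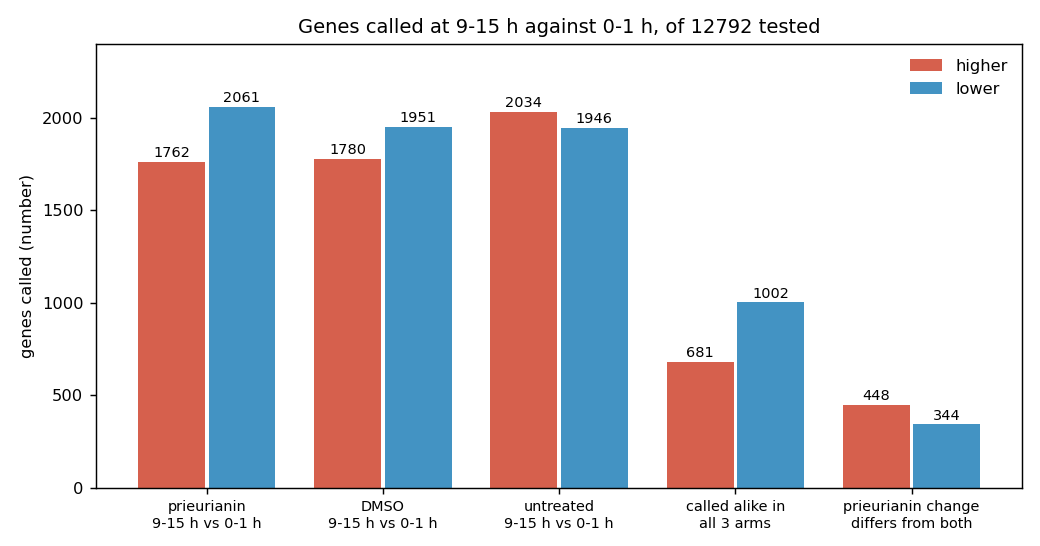
Number of genes called higher (red) and lower (blue) at 9 to 15 h against 0 to 1 h in each arm, called alike in all 3 arms, and with a prieurianin change that differed from both controls. The prieurianin course had 1762 higher and 2061 lower genes, while 681 and 1002 were called alike in all 3 arms.

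Many of these changes were shared with the controls. A total of 681 genes rose in all 3 arms (5.32% of genes tested) and 1002 fell in all 3 (7.83%). Of the prieurianin rises, 777 were also rises in the DMSO arm, 44.1% of the prieurianin list and 43.7% of the DMSO list. The 860 rises shared with untreated cells were 48.8% of the prieurianin list and 42.3% of the untreated list. Of the prieurianin falls, 1187 were also falls with DMSO (57.6% and 60.8% of the 2 lists) and 1163 in untreated cells (56.4% and 59.8%). Neither control called 806 of the rises (45.7%) and 713 of the falls (34.6%), which by itself does not show that the change differed.

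That difference was tested as the prieurianin change minus the control change. Against DMSO it was positive for 604 genes (4.72%) and negative for 538 (4.21%), and against untreated cells positive for 580 (4.53%) and negative for 702 (5.49%). Both differences were called with the same sign for 448 genes (3.5%, hereafter higher than both controls) and 344 genes (2.69%, lower than both). Of the 448, 306 had risen in the prieurianin arm, and 220 had fallen in both control arms. Of the 344, 189 had fallen with prieurianin, and 169 had risen in both control arms. The differing genes thus held both changes called with prieurianin and control changes that were absent or smaller with it.

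These counts depended on scaling. Higher genes made up 46.1% of the calls in the prieurianin course, against 24.1% when arrays were only centred on their medians (465 higher, 1462 lower) and 19.9% on the values as deposited (528 higher, 2122 lower). Those scalings put the median change of all genes at -0.08 and -0.10, the median difference from DMSO at -0.11 and -0.15, and that from untreated cells at -0.18 and 0.03. Higher genes were 52.9% of the differences from DMSO (63.4% with median centring, 44.3% on values as deposited). They were 45.2% of those from untreated cells (55.2% and 68.0% with these scalings). Of the genes differing from both they were 56.6% (69.4% and 62.4%). The 344 genes lower than both controls became 210 without the 15 h prieurianin array, 213 without the 12 h one, 521 without the 9 h one, 222 without the 0.25 h one and 218 without the DMSO array at 12 h. The 1282 differences from untreated cells in all became 777 without the 12 h prieurianin array and 829 without the untreated array at 12 h.

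**Figure D2:**
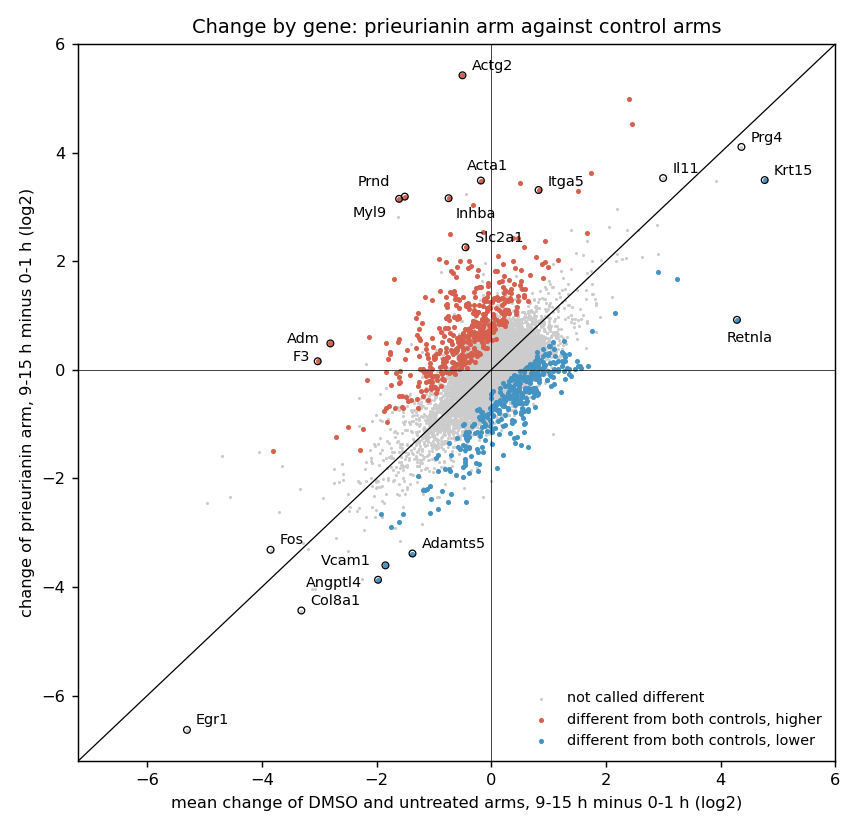
Change of each gene tested in the prieurianin arm (vertical, log2) against the mean change of the DMSO and untreated arms (horizontal, log2), with the line of equal change. Red points were higher than both controls (448 genes) and blue points lower than both (344 genes), and circled genes are described in the text.

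The largest rise was of Actg2, the smooth muscle gamma-actin. It stood at 12.66, 13.19 and 13.85 at 9, 12 and 15 h of prieurianin, against 7.74, 7.87, 7.52 and 8.12 at 0, 0.25, 0.5 and 1 h. All 3 late arrays lay far above all 4 early ones, a change of 5.42 ± 0.22 (SE from limma) or 42.9-fold, with an adjusted p of 1e-11. Late levels were 7.52, 7.11 and 6.94 in the DMSO arm and 7.67, 7.72 and 7.35 in untreated cells, so no control array came near, and the prieurianin change exceeded theirs by 6.16 ± 0.32 and 5.69 ± 0.32. Myl9, the regulatory light chain of smooth muscle and non-muscle myosin, stood at 13.22, 13.59 and 13.83 late and at 10.28, 10.37, 10.18 and 10.76 early with prieurianin (3.15 ± 0.23, adjusted p = 1.1e-08). In both controls Myl9 fell, by 1.79 with DMSO and by 1.42 in untreated cells. Acta1, the skeletal alpha-actin, was dim early (5.19 to 6.02) and stood at 9.18, 9.14 and 8.94 late, a rise of 3.48 ± 0.16 that neither control had. The actin genes are close relatives and a probe may read more than 1 of them, which was not tested. Actc1, the cardiac actin, was at 7.39 to 7.79 late and 7.28 to 7.73 early and was not called.

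Of the 23 actin, SRF and YAP genes tested, 15 rose and 4 fell with prieurianin, with a median change of 0.77. In the DMSO arm 0 rose and 15 fell (median -0.69), and in untreated cells 0 rose and 17 fell (median -0.82), by limma as above. The prieurianin change was higher than both controls for 14 of the 23, which included Acta2 but neither Tagln nor Zyx. Vcl, vinculin, which links integrin contacts to actin, stood at 15.54, 15.59 and 15.19 late and at 13.51, 13.62, 13.43 and 13.95 early (1.81 ± 0.21). Pdlim7 (1.44), the actin crosslinker Flna (1.22), Tpm2 (1.20), Tagln (1.18), Pdlim5 (1.18), Actg1 (0.93), Tagln2 (0.87), Myh9 (0.77), Tpm1 (0.75), Zyx (0.66) and Cnn2 (0.52) also rose. Cnn2, calponin 2, shows how far the arms parted: 14.99, 14.78 and 14.70 late with prieurianin, against 12.66, 12.43 and 12.60 with DMSO and 12.80, 12.71 and 13.03 in untreated cells, from early levels of 14.22 to 14.55 over all 12 early arrays.

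The 4 falls of that list were Ankrd1 (-2.62), Ccn1 (-2.45), Amotl2 (-2.18) and Filip1l (-1.09), all of which also fell in both controls. Ankrd1, Ccn1, Ccn2 and Amotl2 are known YAP targets, so the list did not move as 1 group. Ccn2, a matricellular growth factor, stood at 10.14, 9.10 and 9.34 late and at 8.59, 10.31, 12.00 and 13.56 early with prieurianin, and the groups overlapped (-1.59 ± 1.06, adjusted p = 0.28). Its late levels in the controls were lower, at 6.92, 6.33 and 6.29 with DMSO and 6.46, 6.31 and 6.41 in untreated cells, but the difference of changes was not called (3.08 ± 1.5 against DMSO, adjusted p = 0.24). That test counts the climb over the early times as spread, so it does not show that the changes were alike. Acta2, smooth muscle alpha-actin, was near the top of the scale throughout, with 2 of 3 late prieurianin arrays saturated, so its 0.41 ± 0.24 says little about its size. Its 4 probes changed by 0.41 to 2.71.

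The promoters of these genes were searched for the CArG box on both strands, in the 300 bases from 250 before to 50 after each RefSeq start site (GRCm38.p6). Of the 23 genes, 20 matched a promoter and 6 of them held the box. It was in 1.63% of all 32851 promoters and, counted by gene, in 1.81% of all genes with a promoter. The 4 below are examples from genes that rose with prieurianin and exceeded both controls, with the CArG box in capitals.
Acta1 promoter, chr8:123894726-123895025, minus strand: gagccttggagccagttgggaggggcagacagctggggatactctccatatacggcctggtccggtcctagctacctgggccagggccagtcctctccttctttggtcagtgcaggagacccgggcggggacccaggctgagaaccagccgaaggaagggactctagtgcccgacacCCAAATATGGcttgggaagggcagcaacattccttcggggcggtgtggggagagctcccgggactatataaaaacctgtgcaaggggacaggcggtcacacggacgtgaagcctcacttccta
Myl9 promoter, chr2:156775214-156775513, plus strand: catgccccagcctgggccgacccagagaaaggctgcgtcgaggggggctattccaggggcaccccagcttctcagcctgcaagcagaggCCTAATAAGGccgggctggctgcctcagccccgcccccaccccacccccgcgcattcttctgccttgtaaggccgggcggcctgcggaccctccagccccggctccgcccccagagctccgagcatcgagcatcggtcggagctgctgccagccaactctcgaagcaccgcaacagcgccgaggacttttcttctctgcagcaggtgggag
Vcl promoter, chr14:20929148-20929447, plus strand: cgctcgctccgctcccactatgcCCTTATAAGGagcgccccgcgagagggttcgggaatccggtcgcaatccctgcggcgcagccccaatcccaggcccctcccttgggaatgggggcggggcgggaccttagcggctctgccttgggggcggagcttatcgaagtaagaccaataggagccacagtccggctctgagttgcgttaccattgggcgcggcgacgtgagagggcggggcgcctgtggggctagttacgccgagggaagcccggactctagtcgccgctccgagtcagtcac
Actg1 promoter, chr11:120348446-120348745, minus strand: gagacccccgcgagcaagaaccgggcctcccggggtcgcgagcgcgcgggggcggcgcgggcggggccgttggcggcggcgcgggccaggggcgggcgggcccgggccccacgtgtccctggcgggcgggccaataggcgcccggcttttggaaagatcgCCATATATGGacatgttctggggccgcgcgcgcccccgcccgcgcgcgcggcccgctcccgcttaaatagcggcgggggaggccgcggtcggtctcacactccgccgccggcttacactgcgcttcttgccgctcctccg
The box began 73 bases before the start of Acta1, 161 before that of Myl9, 227 before that of Vcl and 90 before that of Actg1. Cnn2, which also rose and exceeded both controls, and Filip1l, which fell, were the other holders. A match describes the letters in this window and was not tied to binding here. Actg2, Tagln and Ccn2 matched no entry.

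Of 19 integrin and focal adhesion genes tested, 12 rose and 1 fell (median 0.45), against 1 and 6 with DMSO (median -0.17) and 2 and 5 in untreated cells (median -0.03), and 10 were higher than both controls. Itga5, which pairs with the integrin beta1 chain as the fibronectin receptor, stood at 13.27, 13.29 and 13.25 late, against 9.64, 9.78, 9.70 and 10.71 early. The late arrays were nearly equal and all above the early ones, of which 1 h was the highest (3.31 ± 0.29, adjusted p = 1e-07). Itga5 rose by less with DMSO (0.92), was not called in untreated cells (0.74), and differed from both. Itgb3, a chain of the vitronectin receptor, was at 8.70, 8.96 and 8.70 late and at 7.03 to 7.32 early (1.65 ± 0.16). Tes (1.63), Lims1 (1.33), Tns1 (1.29), Lpp (1.18) and Itgav (0.78) rose too, as did Lims2, an adaptor outside the list (3.29). The exception was Itgb5 (-1.23), which fell in all 3 arms. With median centring 6 of the 19 rose and 2 were higher than both controls, and on the values as deposited 5 rose and 3 were. The count of 10 higher than both was 4 with all 54 arrays sharing the error, 5 with an early group of 0 and 0.25 h, and 6 without the 12 h array of either prieurianin or untreated cells.

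Of 18 glycolysis and hypoxia-responsive genes tested, 13 rose and 0 fell (median 0.84), where with DMSO 0 rose and 6 fell (median -0.22) and in untreated cells 0 rose and 4 fell (median -0.16). The change was higher than both controls for 10, including Adm, and for 6 with median centring or on the values as deposited. Slc2a1, the basal glucose transporter, stood at 15.47, 15.64 and 15.57 late and at 13.34, 13.25, 13.25 and 13.37 early. The late arrays lay together far above the early ones, and the rise was 2.26 ± 0.10, or 4.78-fold, while Slc2a1 fell slightly in both controls (-0.55 and -0.35). Ndrg1 (1.88), the endoplasmic oxidase Ero1a (1.83), the mitophagy receptor Bnip3 (1.51), Ankrd37 (1.22), Hk1 (0.98), Egln3 (0.91), Hk2 (0.77) and Pdk1 (0.69) rose and exceeded both controls. Vegfa, the vascular growth factor, rose by 1.21 ± 0.25, but its difference from the controls was not called (adjusted p = 0.061 and 0.072). Pgk1 was saturated, and Pfkp (-0.11) and Car9 (-0.30) were not called.

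**Figure D3:**
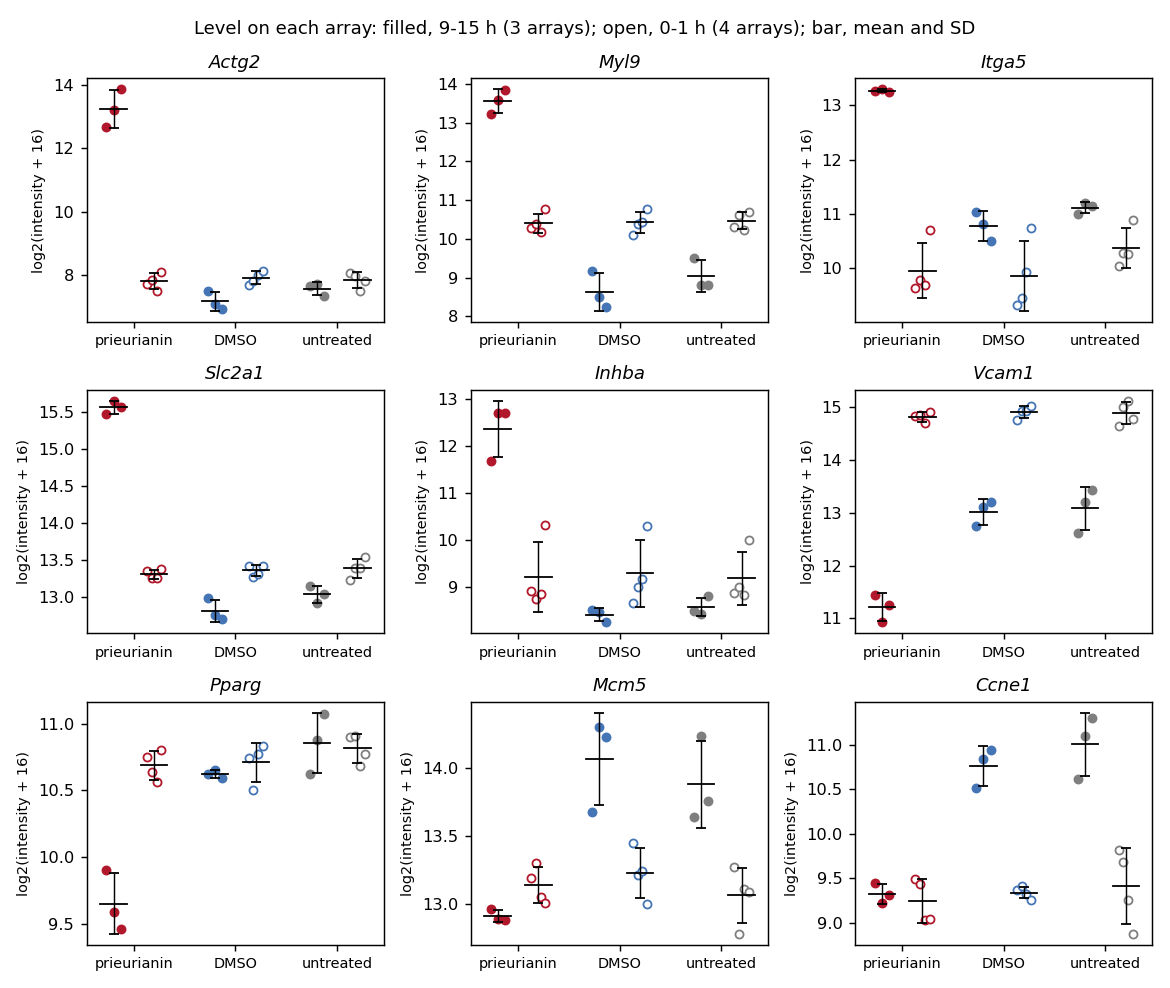
Level of 9 genes on each array (log2(intensity + 16)), with filled points for 9 to 15 h (3 arrays) and open points for 0 to 1 h (4 arrays) in the prieurianin, DMSO and untreated arms, and bars for mean and SD. Actg2, Myl9, Itga5, Slc2a1 and Inhba were highest on the late prieurianin arrays, Vcam1 and Pparg were lowest there, and Mcm5 and Ccne1 were highest on late control arrays.

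Of 19 genes of TGF-beta, activin and BMP signalling tested, 6 rose and 3 fell with prieurianin (median 0.33). With DMSO 2 rose and 2 fell (median -0.1), and in untreated cells 3 rose and 5 fell (median -0.04). All 3 arms shared 2 rises and 1 fall, and 2 genes were higher and 1 lower than both controls. Inhba, the subunit of activin A, stood at 11.67, 12.71 and 12.70 late, against 8.90, 8.73, 8.85 and 10.31 early (3.16 ± 0.40, 8.94-fold, adjusted p = 6.9e-06). It was not called in either control, where late levels were 8.24 to 8.79, and its change exceeded theirs by 4.04 ± 0.57 and 3.77 ± 0.57. Skil, a brake on SMAD signalling, rose by 0.76 where the controls fell. Plaur, the urokinase receptor, rose by 2.44 ± 0.19, the growth factor Pdgfa by 0.96, and Timp3, a metalloprotease inhibitor, by 1.04 with falls of 1.34 and 1.22 in the DMSO and untreated arms. Prnd, a prion-like membrane protein, stood at 10.58, 11.40 and 12.02 late and at 8.01, 8.12, 7.77 and 8.67 early (3.19 ± 0.27) and fell in both controls. Apol10b, Pilra and 4930426L09Rik completed the 10 genes that exceeded both controls by most, with rises of 1.66, 3.04 and 2.50. The mitochondrial cell death gene Bok rose by 3.44 at 1 probe and 1.44 at its other.

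Adm and F3 showed the other sort of difference. Adm, the vasodilator peptide adrenomedullin, climbed within the early arrays of every arm and then stood at 13.00, 12.86 and 12.65 late with prieurianin, after 11.19, 11.89, 12.83 and 13.50 early. The groups overlapped and no change was called (0.49 ± 0.60), whereas late levels were 9.74, 8.94 and 9.37 with DMSO and 9.61, 9.10 and 9.72 in untreated cells. F3, tissue factor, the starter of blood clotting, likewise was at 15.05, 14.82 and 14.81 late with prieurianin, against 11.29, 11.41 and 12.01 with DMSO and 11.26, 11.51 and 12.05 in untreated cells. Its fall in the controls (-2.98 and -3.07) was not seen with prieurianin (0.16 ± 0.42, adjusted p = 0.82), and the differences were called at 3.13 ± 0.59 and 3.23 ± 0.59. The same held for the signalling adaptor Irak2 (0.60, against -2.24 and -2.01), and for Hmox1, heme oxygenase, at -0.12 against -1.53 and -1.70. Gpr176, an orphan receptor (-1.5), Psg16 (-1.24), the chemokine Ccl9 (-1.05), Cdc42ep3 (-1.09) and the class I-like gene H2-T23 (-1.47) fell by less than in either control, though for Ccl9, Cdc42ep3 and H2-T23 leaving out 1 array could end that call (of 21 arrays, 7 for Ccl9, 1 for Cdc42ep3 and 8 for H2-T23, against untreated cells).

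Among the falls that went beyond the controls, Vcam1, the vascular cell adhesion molecule, was the clearest. It stood at 11.45, 10.93 and 11.26 late, against 14.82, 14.84, 14.69 and 14.91 early (-3.60 ± 0.17, 12.1-fold lower, adjusted p = 2.8e-11). It also fell in the controls, by 1.89 and 1.80, and the extra fall was called (-1.71 ± 0.24 and -1.80 ± 0.24), but not when all 54 arrays shared the error, which also held for Adamts5, Adm and Retnla. Angptl4, an inhibitor of lipoprotein lipase, fell by 3.87 ± 0.23 at its brightest probe, against falls of 2.16 and 1.79 in the controls, but its 3 probes ran from -3.87 to -0.04 and with their mean the difference was not called. Adamts5, an aggrecan-cleaving protease, fell by 3.38 ± 0.21, with probes that ran from -3.38 to 0.87. Ccl2, a monocyte chemokine, stood at 13.86, 13.55 and 13.68 late and at 15.64 to 16 early, where 2 of 4 arrays were saturated, so its -2.19 understates the fall. Ccl7 (-1.86), Cxcl5 (-1.64, saturated on all 4 early arrays), Cxcl1 (-0.84, likewise saturated) and Il1rn (-1.15), the interleukin-1 receptor antagonist, were also lower than both controls. In the cytokine and NF-kB list 6 genes, Vcam1 among them, were lower than both controls. That count was 3 with median centring, 5 on the values as deposited and 0 when all 54 arrays shared the error.

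Further named genes were lower than both controls. Pdgfra, the platelet-derived growth factor receptor alpha, fell by 2.21 ± 0.16, Sfrp2, a secreted Wnt antagonist, by 1.97, Vegfc by 1.48 and Fgf10 by 1.14. The leukotriene synthase Ltc4s fell by 2.64. Il13ra2, a decoy receptor, fell by 2.57, the transcription factor Bnc1 by 2.43, the keratinocyte envelope gene Ivl by 1.80, Wdr5b by 1.42 and the sulfatase Arsj by 1.39. Among 14 genes of fatty acid synthesis, 2 rose and 7 fell (median -0.27, against -0.16 and -0.04 in the controls), and 3 were lower than both. These were Elovl6, a fatty acid elongase (-1.74 ± 0.21), Fasn, fatty acid synthase (-0.59 ± 0.13, against 0.51 and 0.44), and Acaca, acetyl-CoA carboxylase (-0.58, against 0.56 and 0.27). Fasn was at 13.09, 12.65 and 12.55 late and at 13.24 to 13.42 early with prieurianin, so its groups did not overlap.

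Pparg itself was at 9.90, 9.59 and 9.46 late, against 10.75, 10.64, 10.56 and 10.80 early. All late arrays were below all early ones (-1.04 ± 0.12, adjusted p = 2.8e-06), while Pparg was not called in the controls (-0.09 and 0.04), and both differences were (-0.95 and -1.08). Cebpa (0.34), Cebpb (0.15), Fabp4 (-0.81) and Dlk1 (-0.15) were not called. Of the 15 adipogenic factors tested, 1 rose and 5 fell (median -0.24), against 1 and 5 with DMSO and 1 and 3 in untreated cells. The rise was Klf15 (0.95 ± 0.12), higher than both controls. Nr3c1, the glucocorticoid receptor (-0.91), and Rxra, the partner of Pparg (-0.49), fell, with no difference from either control called. Of 17 fat cell effector genes 0 rose and 6 fell, against 1 and 4 with DMSO and 2 and 6 in untreated cells. Of the falls, 3 were shared by all 3 arms. Only 1 gene, the lipid droplet gene Cidec (-0.34, against 0.72 and 0.81), was lower than both controls.

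Of 26 DNA replication and S phase genes tested, 2 rose and 8 fell with prieurianin (median -0.24), whereas 19 rose and 0 fell with DMSO (median 0.62) and 22 rose and 0 fell in untreated cells (median 0.69). The prieurianin change was lower than both controls for 17 of the 26. Ccne1, cyclin E1, which carries cells into S phase, was at 9.45, 9.22 and 9.31 late and 9.49, 9.44, 9.03 and 9.04 early with prieurianin (0.08 ± 0.20, not called). It stood at 10.51, 10.84 and 10.94 late with DMSO and 10.61, 11.10 and 11.30 in untreated cells, rises of 1.43 and 1.59. Mcm5, a subunit of the replication helicase, was at 12.96, 12.89 and 12.88 late and 13.19, 13.30, 13.05 and 13.01 early (-0.23 ± 0.16), against rises of 0.85 and 0.82. Cdc6 (0.07, against 1.89 and 1.49) and Rrm2 (0.06, against 1.61 and 1.48) were alike, while Ccne2 (1.05, against 2.08 and 2.23) rose by less and Pcna (0.42) rose in all 3 arms. The falls were Tk1 (-1.35), Lig1 (-1.34), Pola1 (-0.84), Uhrf1 (-0.73), Rrm1 (-0.61), Chaf1b (-0.59), Rfc4 (-0.57) and Rfc3 (-0.39). The 8 falls became 4 or 5 without the 0, 0.25, 9, 12 or 15 h prieurianin array, 5 with median centring, and 3 when all 54 arrays shared the error. The count of 17 varied with the setting. It was 3 with median centring, 6 on the values as deposited, 5 with an early group of 0 and 0.25 h, 10 without the DMSO array at 12 h, 11 without the one at 15 h, and 0 when all 54 arrays shared the error.

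Among these genes, 23 matched a RefSeq promoter and 15 of them held an E2F site, TTCCCGC or TTGGCGC on either strand. So did 6.81% of all promoters and, counted by gene, 7.79% of all genes with a promoter. E2F factors turn on S phase genes once cyclin and kinase activity has released them. The 3 below are shown for genes whose prieurianin change was lower than both controls, with the E2F matches in capitals.
Mcm6 promoter, chr1:128359656-128359955, minus strand: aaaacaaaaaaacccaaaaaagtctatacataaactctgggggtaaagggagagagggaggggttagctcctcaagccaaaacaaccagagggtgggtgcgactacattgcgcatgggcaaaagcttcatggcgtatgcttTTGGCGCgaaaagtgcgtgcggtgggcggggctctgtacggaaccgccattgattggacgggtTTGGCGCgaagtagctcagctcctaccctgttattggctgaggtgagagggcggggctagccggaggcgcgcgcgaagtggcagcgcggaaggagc
Rrm1 promoter, chr7:102441445-102441744, plus strand: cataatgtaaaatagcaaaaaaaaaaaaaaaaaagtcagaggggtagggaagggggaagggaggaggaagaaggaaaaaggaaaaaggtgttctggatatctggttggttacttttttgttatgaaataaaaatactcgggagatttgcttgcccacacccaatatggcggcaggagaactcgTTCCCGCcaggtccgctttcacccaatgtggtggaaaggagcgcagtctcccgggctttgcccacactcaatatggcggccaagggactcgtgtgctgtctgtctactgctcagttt
Uhrf1 promoter, chr17:56303087-56303386, plus strand: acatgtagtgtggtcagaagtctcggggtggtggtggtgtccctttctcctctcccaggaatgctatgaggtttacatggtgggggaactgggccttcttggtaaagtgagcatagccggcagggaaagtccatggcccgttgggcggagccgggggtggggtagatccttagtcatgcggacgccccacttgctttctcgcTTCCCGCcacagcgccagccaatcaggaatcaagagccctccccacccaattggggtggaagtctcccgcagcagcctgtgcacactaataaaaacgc
The match began 67 bases before the start of Rrm1 and 48 before that of Uhrf1, and Mcm6 held 2 matches. Cdt1, Pola1, Rfc4 and Lig1 also held a site, though their difference from both controls was not called. A match was not tied to binding here. Mcm4, Gins1 and Ccne2 matched no entry.

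Ccnd1, cyclin D1, which acts upstream of these genes, was at 14.55, 13.25 and 13.15 late and at 14.63, 14.82, 14.59 and 14.50 early with prieurianin. Its 12 and 15 h arrays lay below every early one and its 9 h array did not (-0.98 ± 0.24, adjusted p = 0.0037), and it was lower than both controls (-1.5 and -1.65). On the 7 prieurianin arrays alone the fall was not called (adjusted p = 0.057), nor when all 54 arrays shared the error. Cdkn2c, a CDK inhibitor, fell by 1.05 and Cdkn1a, p21, rose by 0.41. Of 23 genes of G2 and mitosis, 0 rose and 18 fell with prieurianin (median -0.78), against 2 rises and 5 falls with DMSO (median -0.17) and 0 rises and 2 falls in untreated cells (median -0.16). The largest falls were Ccnb2, cyclin B2 (-1.46), the spindle checkpoint kinase Bub1b (-1.43), Mki67 (-1.12), Nusap1 (-1.06) and Kif23 (-0.96). The difference from both controls was called for 3, Bub1b, Ccna2 and Top2a. That count was 0 with median centring, on the values as deposited, with an early group of 0 and 0.25 h and with all 54 arrays sharing the error, where 4 of the 23 fell. It was 6 without the 9 h array of either DMSO or untreated cells, and 5 without the 9 h prieurianin array. Top2a, a topoisomerase, was at 11.32, 11.25 and 10.87 late and 11.77 to 12.09 early.

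Of 17 ribosome biogenesis genes tested, 2 rose, Rrp9 (0.69) and Rrs1 (0.49), and 0 fell (median 0.13), whereas 13 rose with DMSO (median 0.64) and 14 in untreated cells (median 0.75). The difference from both controls was called for 2, Nop56 and Polr1b, which became 9 without the 9 h prieurianin array, 1 on the values as deposited, and 0 with median centring, an early group of 0 and 0.25 h or all 54 arrays sharing the error. The count of 2 rises was 5 without the 15 h prieurianin array and 0 with median centring or on the values as deposited.

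**Figure D4:**
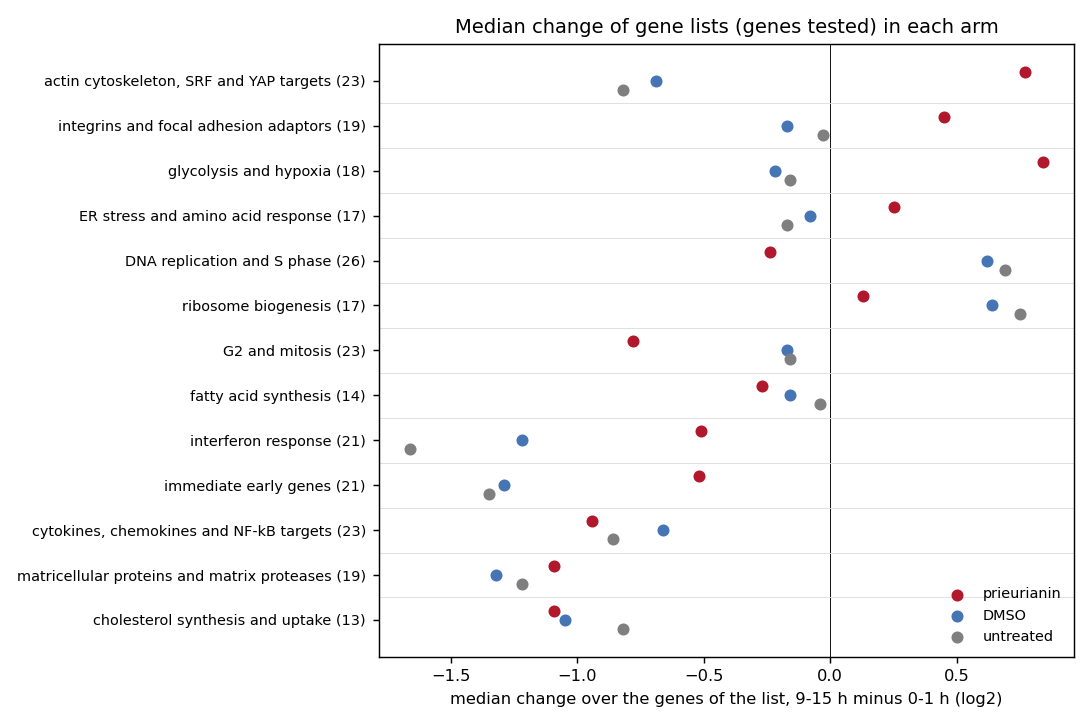
Median change (log2, 9 to 15 h minus 0 to 1 h) over the tested genes of 13 lists in the prieurianin, DMSO and untreated arms, with the number of genes in brackets. Prieurianin medians lay apart from both controls for the actin (0.77), glycolysis (0.84), DNA replication (-0.24) and mitosis (-0.78) lists and near them for cholesterol synthesis (-1.09).

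Egr1, an immediate early zinc finger factor, was at 9.06, 8.62 and 8.15 late, against 13.80, 15.17, 16 and 16 early, the last 2 saturated, so its -6.63 ± 0.54 understates the fall. Its fall was -5.16 with DMSO and -5.45 in untreated cells. Fos stood at 10.03, 9.23 and 8.43 late and at 9.72, 12.21, 14.94 and 13.30 early, so it had climbed after 0 h and its groups overlapped (-3.31 ± 1.10, adjusted p = 0.029, not called without the array at 12 or 15 h or at 0.5 or 1 h). Of 21 immediate early genes 2 rose and 4 fell with prieurianin (median -0.52), against 0 and 10 with DMSO (median -1.29) and 2 and 9 in untreated cells (median -1.35). Their mean level with prieurianin climbed within the early arrays, at 9.94, 10.62, 11.76 and 11.92, and was 10.31, 10.14 and 9.77 late. Nr4a1, an orphan nuclear receptor, was at 10.36 at 0 h and 15.91 at 1 h. Egr2 was at 9.06, 9.63 and 9.77 late, against 7.18 to 7.37 with DMSO and 6.71 to 7.44 in untreated cells, and Btg2 at 12.53, 12.18 and 12.24 against 9.67 to 10.10 and 9.20 to 9.39. For neither was the difference of changes called (smallest adjusted p = 0.20). That test did not match times between arms, so any climb over the early times counts as spread. The mean of the immediate early genes climbed from 10.03 at 0 h to 11.98 at 1 h with DMSO and from 10.12 to 12.05 in untreated cells. The lack of a call therefore does not show that the changes were alike. Jun (0.48, against -0.66 and -0.69) was the 1 member higher than both controls.

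Other shared falls were Col8a1, a collagen chain (-4.43), the Ras activators and relatives Rasgrp3 (-4.05) and Rerg (-4.03), Akr1c14 (-3.46), the chromatin remodeller Smarca1 (-3.33), the cyclic nucleotide phosphodiesterase Pde1b (-3.19), Serpina3g (-3.15) and Rab7b (-3.10). Of 13 cholesterol genes tested, 0 rose and 10 fell with prieurianin (median -1.09), 12 fell with DMSO (median -1.05) and 12 in untreated cells (median -0.82), and 9 fell in all 3 arms. The largest were Fdps (-2.15), Idi1 (-1.98), Insig1 (-1.72), Nsdhl (-1.61) and Mvd (-1.48), enzymes and a sterol sensor partner of this pathway. Idi1 was at 12.53, 11.76 and 11.53 late and 13.71, 13.85, 14.05 and 14.07 early. For 0 of the 13 was the difference from both controls called. The sequence TCACNCCAC, which resembles a sterol regulatory element, was in 0 of the 10 genes that matched a promoter. It was in 1.24% of all promoters and 1.44% of all genes with one, so a count of 0 in 10 genes says little. Of 19 matricellular proteins and proteases, 4 rose and 12 fell (median -1.09), and 10 fell in all arms, among them Thbs1 (-2.36), Mmp13 (-2.09), Mmp3 (-1.55) and Mmp10 (-1.61). Of 23 cytokine and NF-kB genes 2 rose and 13 fell (median -0.94), against 1 and 10 with DMSO and 1 and 14 in untreated cells, and with all 54 arrays sharing the error 7 fell.

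Of 21 interferon-responsive genes, 10 fell and 0 rose with prieurianin (median -0.51), 16 fell with DMSO (median -1.22) and 19 in untreated cells (median -1.66). The count of 10 was 6 without the 15 h prieurianin array, 6 with median centring, 6 on the prieurianin arrays alone and 1 when all 54 arrays shared the error. Gbp2, Usp18, Psmb8 and Gbp3 were higher than both controls, a count of 4 that was 0 with median centring or all 54 arrays sharing the error, 1 on the values as deposited or with an early group of 0 and 0.25 h, and 2 with one without 0 h. It was 2 without the 12 h prieurianin array and 9 without the 15 h one. Gbp2, a guanylate-binding protein, was at 12.60, 12.11 and 11.91 late with prieurianin, against 10.18, 10.27 and 10.63 with DMSO and 9.19, 9.65 and 10.12 in untreated cells. Its early prieurianin levels were 12.38 to 12.42, and its change of -0.19 ± 0.18 was not called.

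Rises shared by all arms included Prg4, lubricin, at 12.15, 12.05 and 11.72 late and 7.78, 7.81, 7.54 and 8.36 early with prieurianin (4.10 ± 0.20, against 4.24 and 4.49). Il11, a cytokine known to restrain fat cell formation, stood at 12.51, 12.50 and 12.36 late and 8.60 to 9.53 early (3.53 ± 0.24, against 2.82 and 3.18). The receptor partner Ramp3 (3.48), the keratin Krt13 (2.67), Pi15 (2.58), Pip (2.57) and Igfbp5 (2.14) behaved alike. Krt16 (4.53, against 2.11 and 2.78), H2-M1 (4.98, against 1.96 and 2.83) and Slurp1 (3.61, against 1.58 and 1.91) rose in all arms and further with prieurianin. Krt15 (3.49, against 4.86 and 4.68), Serpina3k (1.67, against 3.16 and 3.31) and Serpina3n (0.71, against 1.89 and 1.61) rose in all arms by less with it. Retnla, a resistin-like secreted protein, was at 7.29, 7.30 and 7.48 late and 6.06 to 7.04 early (0.92 ± 0.19), while it reached 10.19 to 10.42 with DMSO and 10.26 to 10.71 in untreated cells, rises of 4.15 and 4.42. Of 16 glucocorticoid targets tested, 4 rose and 2 fell with prieurianin (median 0.01), against 4 and 1 with DMSO (median 0.00) and 6 and 1 in untreated cells (median 0.14). The rises were Ddit4 (1.75), Glul (1.19), Tsc22d3 (1.09) and Fkbp5 (0.87, against 1.71 and 1.63), all shared by the 3 arms, and the falls were Angptl4 and Hsd11b1 (-0.26). The glutathione enzyme Gclc (2.02) and the clock gene Per2 (1.95) also rose in all arms. The lectin Clec4d rose by 1.80, against 2.74 and 3.07, and Myc (-0.23) and Il6 (-0.78) were not called in any arm.

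**Figure D5:**
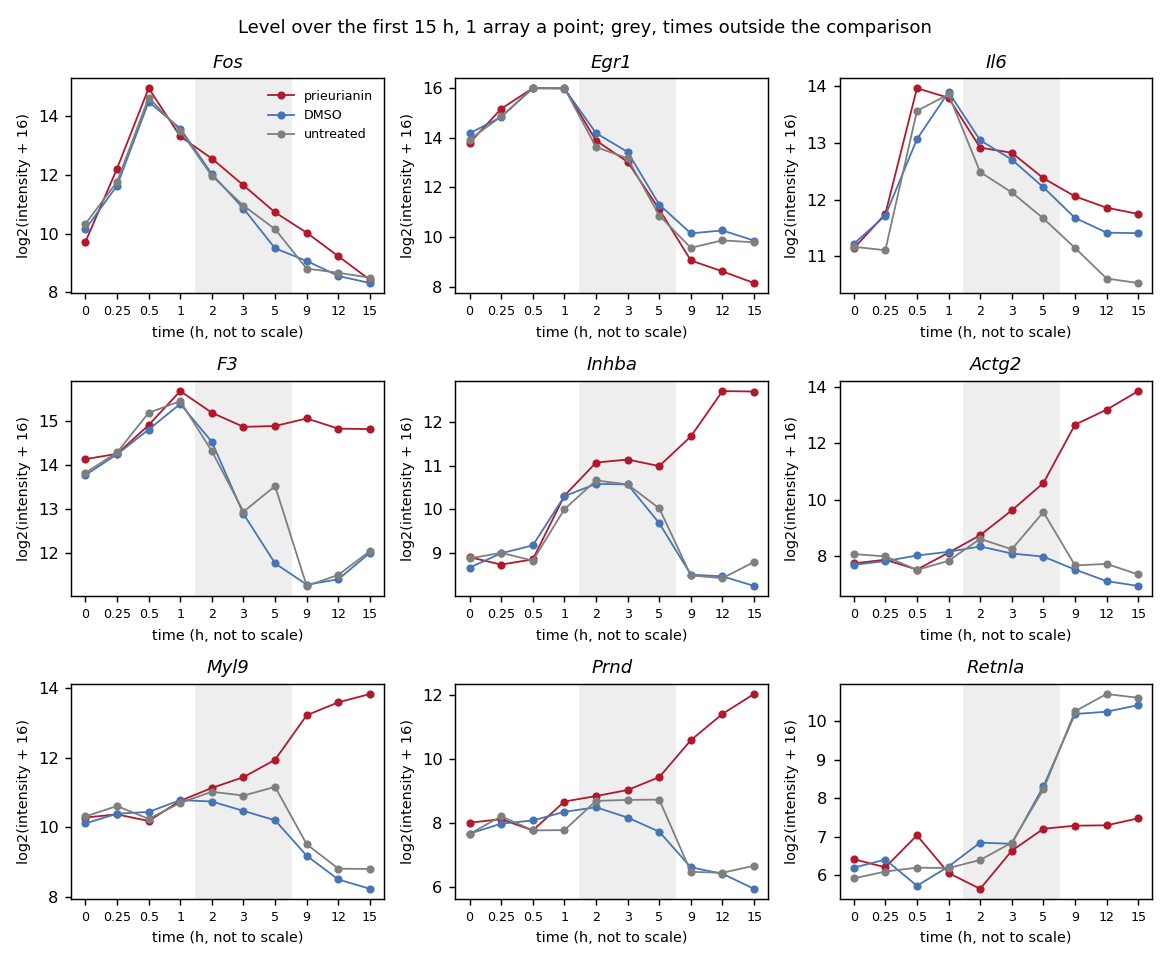
Level of 9 genes (log2(intensity + 16)) at each time from 0 to 15 h in the prieurianin, DMSO and untreated arms, 1 array a point, with the 2, 3 and 5 h arrays that no test used shaded grey. Fos, Egr1 and Il6 peaked at 0.5 to 1 h in every arm, F3 and Inhba stayed high or rose again only with prieurianin, Actg2, Myl9 and Prnd climbed to 15 h only with it, and Retnla climbed past 10 only in the controls.

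The cells carried the markers of their label. All 10 preadipocyte and fibroblast markers were measured, with Vim saturated and Dlk1 at 15.67 to 15.91, and their summed level was 17.94 to 18.08 late and 18.36 to 18.41 early with prieurianin. Their sum was also lower late with DMSO (18.12 to 18.21, after 18.38 to 18.41) and in untreated cells (17.97 to 18.04, after 18.30 to 18.44). Of the 10, 6 fell with prieurianin, 5 with DMSO and 5 in untreated cells. Of 36 markers of macrophages, muscle, endothelium, epithelium, brown fat and bone on the array, 17 lay below the filter, at 4.14 to 6.73 on the 7 prieurianin arrays, among them Ptprc, Cdh5, Epcam, Myod1 and Ucp1. The rest passed it, among them 5 of the 8 macrophage and leukocyte markers. The summed level of those 8 was 11.58 to 11.79 late and 12.37 to 12.64 early with prieurianin. It was lower late in the controls too, at 11.59 to 11.96 after 12.51 to 12.82 with DMSO. In untreated cells it was 11.96 to 12.17 after 12.73 to 13.01. Beside the contractile genes, the summed muscle markers were 10.33 to 10.99 late and 10.45 to 10.90 early. Cd14 (-1.0) and Lyz2 (-1.56) fell in all arms, and Krt8 (0.58) was higher than both controls. Over the 21 arrays the median intensity ran from 115 to 313, the highest on the untreated 1 h array, 102 to 176 probes were saturated per array, and pairs of arrays correlated at 0.943 to 0.996. In bulk RNA, fewer cells of a kind and less RNA per cell cannot be told apart.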

How the data were processed

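Intensities were taken from the deposited series table of 54 one-colour Mouse OneArray microarrays. Their scale and normalisation are not given in the sources used here, and the values ran from -83 to 65497, as linear intensities do. Values were quantile normalised, floored at 0 and taken as log2(intensity + 16). The platform annotation named 21020 of 29922 probes with 1 symbol and left 8902 unnamed. The brightest probe stood for each gene, and 12792 of 16637 genes with a mean above the lower quartile were tested. limma 3.58.1 in R 4.3.3 fitted 21 arrays in 6 groups (15 residual degrees of freedom), and Python 3.11.15 made the tables and figures. The script was tested on simulated data. The number of arrays limits the precision.

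Genes were named as the 12 largest non-overlapping rises and falls, the 10 largest differences from both controls each way, the 8 largest shared changes and the 8 largest control changes that were smaller with prieurianin each way, up to 5 called members per list with the largest change, and a fixed set of 24. Members and lists were chosen with earlier results of these data known, and genes named outside the ranks were chosen after their values were seen. Some genes of the set and lists were not analysed here. Alternatives covered scaling, pseudocount, filter, probe choice, early group, error pooling, blocks and leaving out each array.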

Additional observations from a re-analysis of the deposited data

Results flagged for a closer look

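Of the 74 genes named by rank or from the fixed set, 4 had 1 of the 4 early prieurianin arrays far from the others. In each case it was the highest, at 1 h. The gap to the nearest array, as a share of the range, was 0.894 for Acta2, 0.892 for Inhba, 0.869 for Itga5 and 0.854 for Pi15. Chance flags about 1 in 20 groups.

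The prieurianin change differed from the changes of both controls, by a limma test of the difference itself, for the named genes that follow, with the smaller of the 2 differences given on the log2 scale. Among contractile, adhesion and glucose genes it was 5.69 for Actg2, 4.57 for Myl9, 3.61 for Acta1, 1.33 for Acta2, 2.40 for Itga5, 1.76 for Lims2 and 2.61 for Slc2a1. Among signals and surface proteins it was 4.52 for Prnd, 3.77 for Inhba, 3.28 for Adm, 3.13 for F3, 3.35 for Pilra, 2.61 for Irak2, 2.28 for Gpr176, 1.42 for Psg16, 1.25 for Ccl9, 2.15 for H2-M1, 0.77 for H2-T23 and 1.70 for Slurp1. The other positive differences were 3.17 for Apol10b, 2.97 for 4930426L09Rik, 2.75 for Bok, 1.75 for Krt16 and 1.12 for Cdc42ep3.

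Negative differences among cell cycle genes were -1.35 for Ccne1, -1.03 for Ccne2, -1.50 for Ccnd1, -1.42 for Cdc6, -1.05 for Mcm5, -1.41 for Rrm2 and -0.96 for Top2a. Among secreted, surface and lipid genes they were -3.23 for Retnla, -1.71 for Vcam1, -1.71 for Angptl4, -1.93 for Adamts5, -1.02 for Ccl2, -1.69 for Il1rn, -1.64 for Il13ra2, -1.49 for Serpina3k, -0.90 for Serpina3n, -0.95 for Clec4d and -0.95 for Pparg. The rest were -1.98 for Bnc1, -1.97 for Wdr5b, -1.85 for Arsj, -1.78 for Ivl and -1.18 for Krt15.

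At 2, 3 and 5 h, times that no comparison used, all 3 prieurianin arrays stood above all 6 control arrays of those times for 5 of the 10 genes highest against the controls. At 5 h the gap to the nearer control was 1.36 for F3, 1.32 for 4930426L09Rik, 1.27 for Apol10b, 0.97 for Inhba and 0.70 for Prnd, with 1 array per arm and time and no test. Compared time by time, the prieurianin array also stood above both control arrays at 2, 3 and 5 h for Actg2, Myl9 and Acta1, with 5 h gaps of 1.03, 0.78 and 0.69.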

How the results depend on the processing

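The changes of 74 genes named by rank or from the fixed set were checked singly, with the differences of 33 of them from each control. No call among these changed sign under any alternative run. Other genes named in the text were not checked singly. Counts did move. With median centring the prieurianin course had 1927 calls (465 higher), the DMSO course 1505, the untreated course 1755, the difference from DMSO 183, from untreated cells 223, all arms shared 622, and 102 genes were higher and 45 lower than both controls. On values as deposited these were 528 higher, 2206 (DMSO), 413, 384, 1023 shared, 164 and 99. With all 54 arrays sharing the error they were 1324 lower with prieurianin, 2448 (DMSO), 2641 (untreated), 331, 378, 875 shared, 182 and 47. An early group of 0 and 0.25 h gave 1152 higher, 382, 464, 225 and 81, and one without 0 h gave 851 differences from untreated cells and 228 genes lower than both. Leaving out 1 array gave 3171 to 4104 calls in the prieurianin course (1348 to 1942 higher, 1723 to 2162 lower), 2983 to 3929 with DMSO, 3189 to 4059 untreated, 768 to 1408 differences from DMSO, 777 to 1532 from untreated cells, 1439 to 1745 shared, 317 to 495 higher and 210 to 521 lower than both. Of the values checked singly, 46 calls were lost without 1 array, for Adm, Ccl9, Ccne2, Cdc42ep3, Clec4d, Fos, H2-T23 and Irak2. Under other settings 118 were lost, 50 of them with all 54 arrays. Among these were the changes of Ccl2, Ccnd1, Fkbp5, Il1rn, Retnla and Top2a and the differences of Adamts5, Adm, Cdc6, Retnla, Rrm2 and Vcam1 from both controls. Why these moved was not tested. Same-time arrays of different arms did not all deviate together (correlations from -0.332 to 0.532). Every pair was positive at 0 h (0.167 to 0.323) and at 1 h (0.058 to 0.532), while other times had pairs of either sign. With time as a fixed replicate block the differences numbered 1435 (DMSO) and 1622 (untreated), with 558 genes higher and 476 lower than both, and the Ccne2 difference from DMSO was not called. Probes at the top of the scale and dim genes give bounds or understated changes.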

Other observations

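At 24 h, outside the comparison, with 1 array per arm and no test, some genes that had parted lay near the controls again. Mcm5 was at 13.66 with prieurianin, 13.63 with DMSO and 13.77 untreated. Pparg was at 11.08, against 10.85 with DMSO and 11.17 untreated, and Vcam1 at 13.67, against 13.44 and 13.65. Others did not. Actg2 was at 12.78 with prieurianin, 6.69 with DMSO and 7.0 untreated, and Myl9 at 13.41, against 7.66 and 8.13. Retnla was at 9.38 with prieurianin, 11.21 with DMSO and 11.07 untreated.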
